A study of Mus musculus with 8 samples.

Results

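The list described here holds the genes whose signal was higher in every Sod1 knockout array than in every wild-type array of mouse EDL, the extensor digitorum longus, which runs down the front of the lower leg and consists mostly of fast fibres. Sod1 encodes the copper-zinc superoxide dismutase, which removes superoxide from the cytosol, and the arrays compare muscle RNA with and without the gene. The groups are 4 Illumina bead arrays from EDL of sod-/- mice and 4 from EDL of wild-type mice, all aged 7 months. The knockout allele, strain and sex are not given in the labels, nor whether each sample is another animal, so SDs and p-values cover only how far these samples spread, and their number limits the precision. Values are the deposited intensities, taken as log2 from their range, which the authors had brought to one common distribution across the 8 arrays. Sod1 itself was not analysed here, which leaves the labels without that check. A probe entered if it had 1 gene symbol, exceeded the median of its array on 4 or more of the 8 arrays, and had its lowest knockout value above its highest wild-type value. Of 4309 named probes past the level filter, 82 met this condition. The 12 probes of Myl12a, Pfn1, Rpl3, Mapt, Fez1, Dtna, Car3, Lgmn and Dhrs4 are left out, which leaves 70 probes of 69 genes, out of 7053 named genes in the table.

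Skeletal muscle meets oxidative and mechanical load with several well-known responses. Sarcomere-bound ankyrin repeat and LIM proteins are made in larger amounts after stretch or loss of the nerve, reductases of the methionine sulfoxide and thioredoxin families repair oxidised protein, and small heat shock proteins hold damaged filament proteins. The antioxidant response element, a short DNA motif bound by NRF2, controls many detoxifying enzymes, and M-CAT motifs bound by TEAD factors occur in many muscle promoters.

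The values of both genotypes chose these genes, so their differences are described and not tested. The 82 probes are 1.9% of the named probes past the filter. Any 1 of the 70 ways to split the 8 arrays into 4 and 4 puts 1.43% of probes in one direction on average, or 61.6 probes here. That average has no spread attached, and probes measured on the same arrays are not independent. In the other direction, 116 named probes, or 2.69%, lay lower in every knockout array than in every wild-type array. Over all 4698 probes past the filter, named or not, the shares were 1.87% higher and 2.72% lower. In a limma fit over these probes 0, or 0%, passed a Benjamini-Hochberg adjusted p of 0.05 in either direction, and the smallest adjusted p was 0.219. At an unadjusted p under 0.05, 439 passed, of which 223, or 4.75% of those tested, were higher in the knockout. A place in the list says only that the genotypes did not overlap in these arrays.

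The count also depends on single arrays. With 3 arrays against 4, random labels give 2.86% in one direction, or 123.1 probes. Leaving out knockout replicates 1, 2, 3 and 4 gave 131, 307, 107 and 126 higher probes. Leaving out wild-type replicates 1, 2, 3 and 4 gave 194, 157, 124 and 136. Of these 8 counts, the one without knockout replicate 3 was below 123.1, and the one without knockout replicate 2 was furthest above it. Without knockout replicate 2, limma called 36 of the 4698 probes, of which 33 were higher. Of the 70 probes of the list, 3 were among them, those of Gprc5b, Igdcc4 and App. The rule had chosen the 70 from these same values, and replicate 2 was their lowest knockout at 29 of them. These calls are therefore no test of the listed genes.

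**Figure D1:**
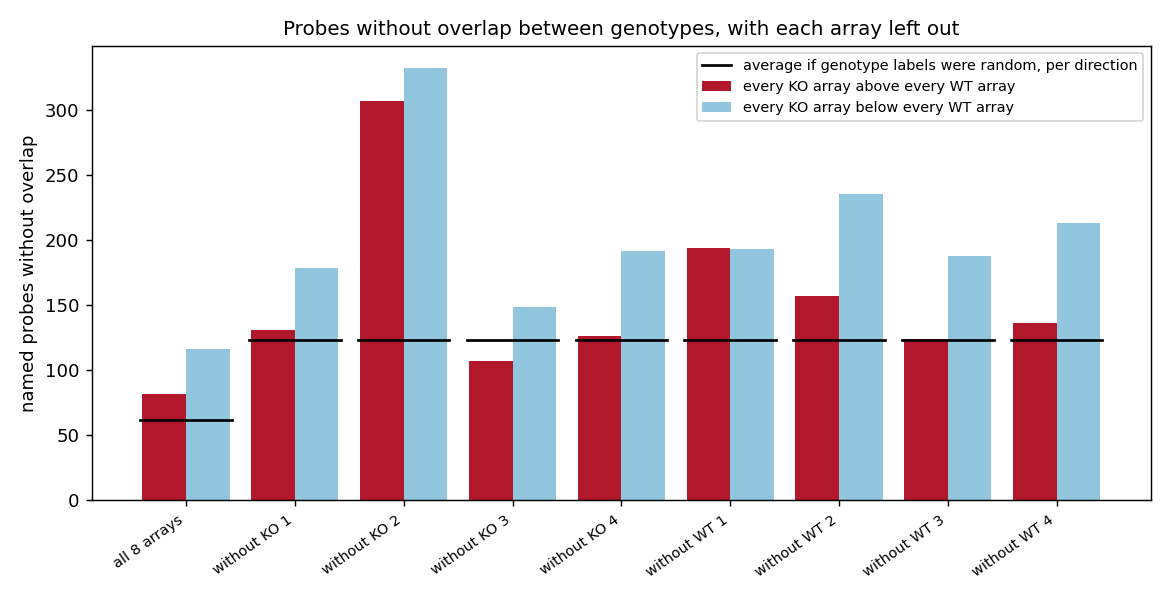
Number of named probes (vertical axis) at which all knockout arrays lay above (red) or below (light blue) all wild-type arrays, with all 8 arrays and with each array left out in turn. Black lines give the average for random genotype labels, 61.6 for 4 against 4 and 123.1 for 3 against 4. The bars without knockout replicate 2, at 307 and 333, are the tallest.

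Ankrd1 had the largest difference in the list, so its promoter is shown, together with the antioxidant motifs of the 5 members with the largest differences among those that carry one. RefSeq promoter windows (GRCm38.p6) of 250 bases before and 50 bases from the start site on were on hand for 56 of the 69 genes. The Ankrd1 window lies on chromosome 19 at chr19:36119795-36120094, minus strand, and capitals mark the M-CAT motif CATTCC, here in its reverse complement.
Ankrd1: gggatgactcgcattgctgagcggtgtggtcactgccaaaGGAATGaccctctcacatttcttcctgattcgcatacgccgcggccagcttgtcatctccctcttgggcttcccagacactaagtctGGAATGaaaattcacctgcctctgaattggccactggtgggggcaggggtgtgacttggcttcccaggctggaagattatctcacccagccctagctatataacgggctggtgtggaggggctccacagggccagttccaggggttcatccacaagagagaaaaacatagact
Both M-CAT copies lie upstream of the start site, and begin at positions -210 and -123 counted from it. In the next windows capitals mark TGACNNNGC, the core of the antioxidant response element, read 5′ to 3′ on the strand that holds it.
Ankrd1, chr19:36119898-36119926, minus strand: ggcaggggtgTGACTTGGCttcccaggct
App, chr16:85173694-85173722, plus strand: ccgaggaaacTGACAGAGCtggagcgagg
App, chr16:85173731-85173759, minus strand: cgggatcagcTGACTCTGCcggctgcgag
Eif5a, chr11:69921449-69921477, plus strand: cgcacacacgTGACCCCGCccctttccag
Nme1, chr11:93968223-93968248, plus strand: cttcagaTGACAAGGCtttaccgccg
Ehd4, chr2:120154612-120154640, minus strand: cgcgcgcccgTGACGCAGCggctgatgat
Counted along the gene's direction, whichever strand holds the core, the Ankrd1 core begins at position -72 and the App cores at -5 and -42. Of 78 windows of member genes, 15 held this core on either strand, or 19.2%, beside 14.5% of the 4136 windows of all tested genes and 12.4% of all 32851 windows. These 15 windows belong to 13 genes, because a gene can have several windows. Windows of Eif5a and of Nme1 overlap and count the same site again. CATTCC was in 12.8% of member windows, 12.3% of tested-gene windows and 14.7% of all windows. The E-box CANNTG was in 67.9% of member windows, 63.4% of tested-gene windows and 72.3% of all windows. The CArG box, bound by SRF, was in 1.28% of member windows, 1.64% of tested-gene windows and 1.63% of all windows. The MEF2 site was in 1.28% of member windows, 1.98% of tested-gene windows and 3.19% of all windows. These are matches of letters, counted on both strands, in which an M-CAT or an antioxidant core may overlap an E-box.

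The differences ran from 0.13 to 2.98 log2 units, with a median of 0.52 and quartiles of 0.38 and 0.83. The median corresponds to a 1.43-fold higher intensity in the knockout. At 12 probes the knockout mean was at least 1 log2 unit higher, at 24 it was higher by 0.5 to 1, and at 34 by less than 0.5. The gap between the lowest knockout and the highest wild-type array was small at most probes. Its median was 0.08 log2 units, 23 probes had a gap under 0.05, and 7 had a gap of at least 0.25. The median standard error of a difference over all tested probes was 0.21. The list's median level of 8.70 lay beside 8.68 over all named tested probes.

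**Figure D2:**
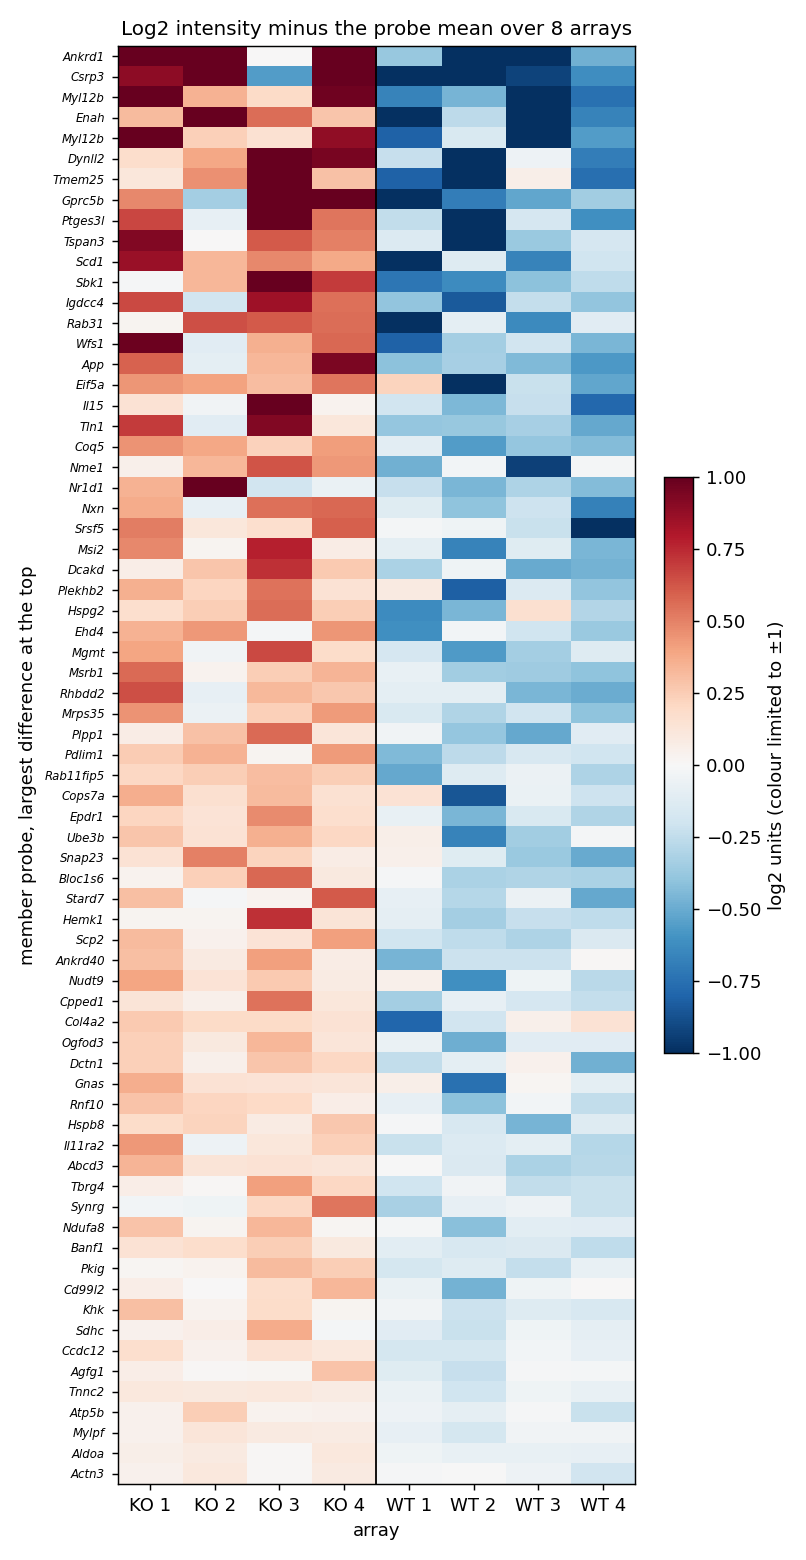
Log2 intensity of each of the 70 member probes minus its mean over the 8 arrays, with the 4 knockout columns left of the 4 wild-type columns and probes ordered by difference. Every knockout cell is higher than every wild-type cell of its row by construction, and the contrast fades from Ankrd1 at 2.98 to Actn3 at 0.13.

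Ankrd1 and Csrp3, which sit at titin and the Z-disc of the sarcomere, stood furthest above the wild type. Ankrd1, an ankyrin repeat protein of the titin filament, had log2 intensities of 12.16, 12.21, 10.05 and 11.75 in knockout replicates 1 to 4, against 9.67, 8.76, 6.25 and 9.58 in wild-type replicates 1 to 4. Its means were 11.54 ± 1.01 in knockout arrays and 8.56 ± 1.60 in wild-type arrays (SD, n = 4 each), a 7.89-fold difference. Knockout replicate 3 was well below the other 3 knockouts, and wild-type replicate 3 was the lowest of all arrays by a wide margin. Csrp3, the muscle LIM protein of the Z-disc, stood at 11.07, 12.71, 9.62 and 11.18 in the knockout, against 8.92, 9.12, 9.26 and 9.56 in the wild type. Replicate 2 was the highest knockout and replicate 3 lay just above the top wild-type array. The difference of 1.93 in Csrp3 stood beside an SD of 1.26 among knockouts and 0.27 among wild types. The other sarcomere genes of the list were fast-fibre proteins near the top of the scale. Tnnc2, the calcium-binding troponin of fast fibres, stood at 13.98, 13.97, 13.98 and 13.96 in the knockout, against 13.81, 13.68, 13.84 and 13.80 in the wild type. Mylpf, the fast regulatory myosin light chain, stood at 13.83, 13.91, 13.89 and 13.87 in the knockout, against 13.71, 13.62, 13.75 and 13.75 in the wild type. Actn3, the alpha-actinin of fast fibres, stood at 13.81, 13.87, 13.78 and 13.86 in the knockout, against 13.75, 13.76, 13.71 and 13.58 in the wild type. Their differences of 0.19, 0.17 and 0.13 were among the smallest of the list. With Hspb8, Atp5b and Aldoa they make up the 6 members whose mean lay above 13, a range that holds 121 of the 4698 tested probes.

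Non-sarcomeric actin genes formed the group with the largest median, 1.43 over 5 probes of 4 genes. That median is the value of the brighter of the Myl12b probes. All wild-type values of Enah and Tln1 lay below the array median of 6.93. These genes passed the level filter only through the knockout arrays, where the rule requires them to be high. Myl12b, a light chain that regulates non-muscle myosin, was represented by a pair of probes. The dimmer of them had 11.69, 10.26, 10.10 and 10.88 in the knockout, against 9.24, 9.45, 8.50 and 9.16 in the wild type, and its gap of 0.66 was the widest of the list. The brighter had 12.96, 11.61, 11.53 and 12.27 in the knockout, against 10.57, 11.23, 10.03 and 10.82 in the wild type. On both probes replicate 1 was the highest knockout and wild-type replicate 3 the lowest array. The remaining Myl12b probe overlapped, with 8.34, 8.97, 8.64 and 8.86 in the knockout against 8.32, 8.49, 8.54 and 8.87 in the wild type. Myl12a, which lies next to Myl12b with 0 protein-coding genes between them, stood at 10.30, 9.60, 9.19 and 9.86 in the knockout, against 7.76, 8.05, 7.42 and 8.26 in the wild type. The coding sequences of these neighbours are nearly identical, and whether the probes tell them apart was not tested. Enah, an Ena/VASP protein that extends actin filaments, stood at 7.39, 9.04, 7.63 and 7.35 in the knockout, against 6.0, 6.81, 5.94 and 6.41 in the wild type. Replicate 2 set the Enah mean apart, but its other 3 knockouts were also more than 0.5 log2 units above the top wild-type value. Tln1, the talin that links integrins to actin, stood at 7.92, 7.11, 8.15 and 7.34 in the knockout, against 6.83, 6.84, 6.89 and 6.71 in the wild type, and its wild-type arrays lay close together. Pdlim1, a PDZ-LIM protein that binds alpha-actinin, differed by 0.53.

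Motor and membrane traffic genes contributed 10 probes, with a median difference of 0.49. Dynll2, a light chain of cytoplasmic dynein, stood at 7.11, 7.31, 8.25 and 7.88 in the knockout, against 6.70, 5.08, 6.88 and 6.24 in the wild type, where replicate 2 was far below the rest. All its wild-type values lay below the array median of 6.93, so Dynll2 too passed the level filter only through knockout arrays. Rab31, a Rab GTPase of the trans-Golgi network and endosomes, stood at 7.12, 7.73, 7.70 and 7.65 in the knockout, against 6.08, 6.99, 6.45 and 6.98 in the wild type. Rab11fip5, an effector of Rab11 in endosome recycling, had 8.51, 8.55, 8.61 and 8.55 in the knockout, against 7.79, 8.17, 8.24 and 7.99 in the wild type. Its knockout arrays spread over an SD of only 0.04. Dctn1, the large subunit of dynactin, stood at 8.75, 8.56, 8.79 and 8.72 in the knockout, against 8.27, 8.41, 8.56 and 8.03 in the wild type, and Agfg1, a protein of clathrin-coated pits, at 7.17, 7.12, 7.13 and 7.39 in the knockout, against 6.99, 6.87, 7.10 and 7.09 in the wild type. Both were near the edge of the list, with gaps of 0.0047 and 0.023. Plekhb2, a protein of recycling endosomes, differed by 0.63. Ehd4, of the EHD family of endocytic recycling, differed by 0.60. The SNARE protein Snap23 differed by 0.47, Bloc1s6, a subunit of the lysosome biogenesis complex BLOC, by 0.47, and Synrg, a partner of the clathrin adaptor AP, by 0.34, or 0.22 without knockout replicate 4.

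Cell surface and basement membrane genes differed by 0.29 to 1.35, with a median of 0.75 over 8 probes. Tmem25, a transmembrane protein with immunoglobulin domains, stood at 7.19, 7.54, 8.91 and 7.37 in the knockout, against 6.27, 5.88, 7.13 and 6.33 in the wild type, and replicate 3 was the highest knockout. Tspan3, a tetraspanin, stood at 9.51, 8.59, 9.20 and 9.09 in the knockout, against 8.45, 7.21, 8.21 and 8.42 in the wild type. Igdcc4, of the immunoglobulin superfamily, stood at 9.42, 8.57, 9.61 and 9.31 in the knockout, against 8.36, 7.92, 8.53 and 8.36 in the wild type. The lowest knockout was replicate 1 for Tmem25 and replicate 2 for Tspan3 and Igdcc4. App, the amyloid precursor protein, had 9.27, 8.58, 9.01 and 9.62 in the knockout, against 8.27, 8.34, 8.23 and 8.10 in the wild type. App lies on chromosome 16 with Sod1, with 72 protein-coding genes between them, and the wild-type arrays spread by an SD of only 0.10. At every other tested probe from App to Get1, a stretch that spans the Sod1 locus, the genotypes overlapped. The nearest of these probes on either side of Sod1 belonged to Bach1 and Ifngr2, however. Between these genes, the part that holds Sod1, no probe was past the filter. Bach1 and Ifngr2 lie 10 and 89 places from App in the order of protein-coding genes. With 72 genes between App and Sod1, Ifngr2 lies nearer to Sod1 than Bach1 does. Hspg2, the basement membrane proteoglycan perlecan, stood at 9.07, 9.15, 9.46 and 9.15 in the knockout, against 8.27, 8.45, 9.06 and 8.61 in the wild type. Col4a2, a chain of basement membrane collagen, stood at 9.99, 9.92, 9.92 and 9.88 in the knockout, against 8.94, 9.54, 9.78 and 9.87 in the wild type. Wild-type replicate 1 alone was far below the rest for Col4a2, and without it the difference was 0.20. Cd99l2, an adhesion protein, stood at 10.36, 10.29, 10.46 and 10.62 in the knockout, against 10.22, 9.82, 10.24 and 10.29 in the wild type, and its difference of 0.29 was 0.18 without wild-type replicate 2. Epdr1, an ependymin-related glycoprotein, differed by 0.49.

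Among lipid genes Scd1 stood apart. Scd1, the desaturase that makes monounsaturated fatty acids, stood at 8.25, 7.71, 7.86 and 7.76 in the knockout, against 6.34, 7.26, 6.72 and 7.19 in the wild type, with a gap of 0.45. Plpp1, a lipid phosphate phosphatase, stood at 9.10, 9.31, 9.59 and 9.14 in the knockout, against 8.98, 8.64, 8.51 and 8.91 in the wild type. Scp2, the sterol carrier protein of peroxisomes, stood at 11.12, 10.85, 10.94 and 11.21 in the knockout, against 10.60, 10.55, 10.50 and 10.66 in the wild type. Both genes had other probes with larger differences. Abcd3, a fatty acid transporter of the peroxisomal membrane, differed by 0.37, and Stard7, which carries phosphatidylcholine to mitochondria, by 0.47.

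Energy and nucleotide metabolism gave 10 probes with the second-lowest group median, 0.34. Coq5, a methyltransferase of ubiquinone synthesis, stood at 8.79, 8.72, 8.57 and 8.75 in the knockout, against 8.23, 7.78, 7.95 and 7.90 in the wild type. Its gap of 0.34 was among the widest, and its knockout arrays were close together. The list held 3 subunits of the respiratory chain and ATP synthase. Ndufa8 of complex I stood at 11.62, 11.36, 11.67 and 11.35 in the knockout, against 11.31, 10.92, 11.23 and 11.22 in the wild type. Sdhc of complex II stood at 12.57, 12.59, 12.90 and 12.51 in the knockout, against 12.41, 12.30, 12.48 and 12.44 in the wild type. Without knockout replicate 3, its highest array, Sdhc differed by 0.15 instead of 0.23. Atp5b, the catalytic subunit of ATP synthase, stood at 13.76, 13.96, 13.75 and 13.76 in the knockout, against 13.66, 13.63, 13.71 and 13.49 in the wild type, where replicate 2 was the highest knockout. Aldoa, the muscle aldolase of glycolysis, stood at 13.99, 14.02, 13.94 and 14.03 in the knockout, against 13.89, 13.86, 13.86 and 13.85 in the wild type. Khk, ketohexokinase, stood at 8.74, 8.47, 8.62 and 8.46 in the knockout, against 8.40, 8.22, 8.31 and 8.28 in the wild type. The Aldoa and Khk groups were each narrow and lay near each other. Mrps35, of the mitochondrial ribosome, stood at 7.63, 7.13, 7.42 and 7.61 in the knockout, against 7.03, 6.88, 6.99 and 6.78 in the wild type. Tbrg4, a mitochondrial RNA-binding protein, stood at 9.96, 9.91, 10.31 and 10.10 in the knockout, against 9.69, 9.86, 9.65 and 9.68 in the wild type. Wild-type replicate 2 came within 0.048 of the lowest knockout for Tbrg4. Nme1, a nucleoside diphosphate kinase, differed by 0.73, and Nudt9, an ADP-ribose pyrophosphatase, by 0.44.

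Genes of redox repair and protein quality control differed by 0.38 to 0.90. Msrb1, the selenoprotein that reduces oxidised methionine, stood at 9.51, 8.97, 9.19 and 9.28 in the knockout, against 8.87, 8.59, 8.59 and 8.54 in the wild type. The wild-type arrays other than replicate 1 lay within a narrow range. Wfs1, an endoplasmic reticulum membrane protein, stood at 9.44, 8.36, 8.83 and 9.04 in the knockout, against 7.66, 8.13, 8.28 and 8.01 in the wild type. Nxn, the thioredoxin-like nucleoredoxin, differed by 0.71 and Mgmt, which removes alkyl groups from guanine in DNA, by 0.60. Hspb8, a small heat shock protein, differed by 0.38. Ube3b, a ubiquitin ligase, stood at 7.20, 7.07, 7.28 and 7.13 in the knockout, against 6.99, 6.26, 6.58 and 6.91 in the wild type. Cops7a, of the COP9 signalosome, stood at 8.11, 7.91, 8.07 and 7.90 in the knockout, against 7.89, 6.89, 7.69 and 7.54 in the wild type. Without wild-type replicate 2 the Cops7a difference was 0.29 instead of 0.49. The ubiquitin ligase Rnf10 differed by 0.39.

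Signalling members included a receptor and a kinase with differences above 1 log2 unit. Gprc5b, an orphan G protein-coupled receptor, stood at 8.35, 7.52, 9.18 and 9.09 in the knockout, against 6.75, 7.17, 7.34 and 7.52 in the wild type. Replicate 2 exceeded the top wild-type array by just 0.0036, while the other 3 knockouts were clear of it. Sbk1, a protein kinase, stood at 8.58, 8.92, 9.58 and 9.29 in the knockout, against 7.86, 7.96, 8.18 and 8.33 in the wild type. Il15, a cytokine made by muscle, stood at 7.28, 7.10, 8.65 and 7.17 in the knockout, against 6.94, 6.69, 6.90 and 6.34 in the wild type. Its difference of 0.83 was 0.46 without knockout replicate 3, which lay far above the rest. Gnas, the stimulatory G protein subunit, stood at 8.27, 8.05, 8.04 and 8.03 in the knockout, against 7.96, 7.16, 7.92 and 7.80 in the wild type. Its difference of 0.39 was 0.20 without wild-type replicate 2. Pkig, an inhibitor of protein kinase A, stood at 11.36, 11.38, 11.66 and 11.59 in the knockout, against 11.17, 11.22, 11.11 and 11.27 in the wild type. Il11ra2 differed by 0.37, and whether its probe tells it from its near-identical copy Il11ra1 was not tested.

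Regulators of transcription and RNA differed by 0.23 to 0.84. Nr1d1, the repressor REV-ERB alpha of the circadian clock, stood at 8.65, 9.64, 8.11 and 8.23 in the knockout, against 8.07, 7.85, 7.99 and 7.87 in the wild type. Knockout replicate 2 was more than 0.9 log2 units above the next array, and without it the difference was 0.39. Eif5a, a translation elongation factor, stood at 10.09, 10.05, 9.96 and 10.19 in the knockout, against 9.87, 8.49, 9.43 and 9.13 in the wild type, where replicate 2 was far below the rest. Srsf5, a splicing factor, stood at 7.88, 7.49, 7.54 and 7.97 in the knockout, against 7.35, 7.32, 7.15 and 6.26 in the wild type. Without wild-type replicate 4 its difference was 0.44 instead of 0.70. Msi2, an RNA-binding protein of the Musashi family, stood at 7.80, 7.35, 8.10 and 7.40 in the knockout, against 7.22, 6.66, 7.20 and 6.87 in the wild type. Banf1, which ties chromatin to the nuclear envelope, stood at 9.85, 9.89, 9.95 and 9.80 in the knockout, against 9.61, 9.55, 9.57 and 9.46 in the wild type, with an SD of 0.06 among knockouts and 0.06 among wild types. Hemk1, a methyltransferase of release factors, differed by 0.46, or 0.29 without knockout replicate 3, and Ccdc12, a spliceosome protein, by 0.23. Of the 6 little-described members, Ptges3l stood at 9.39, 8.64, 9.76 and 9.26 in the knockout, against 8.47, 7.58, 8.56 and 8.11 in the wild type. Rhbdd2, a rhomboid family protein, stood at 7.75, 7.03, 7.44 and 7.38 in the knockout, against 7.01, 7.01, 6.65 and 6.61 in the wild type, and Ankrd40 at 9.79, 9.58, 9.90 and 9.57 in the knockout, against 9.03, 9.28, 9.28 and 9.50 in the wild type. Dcakd differed by 0.67, Cpped1 by 0.41 and Ogfod3 by 0.39.

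**Figure D3:**
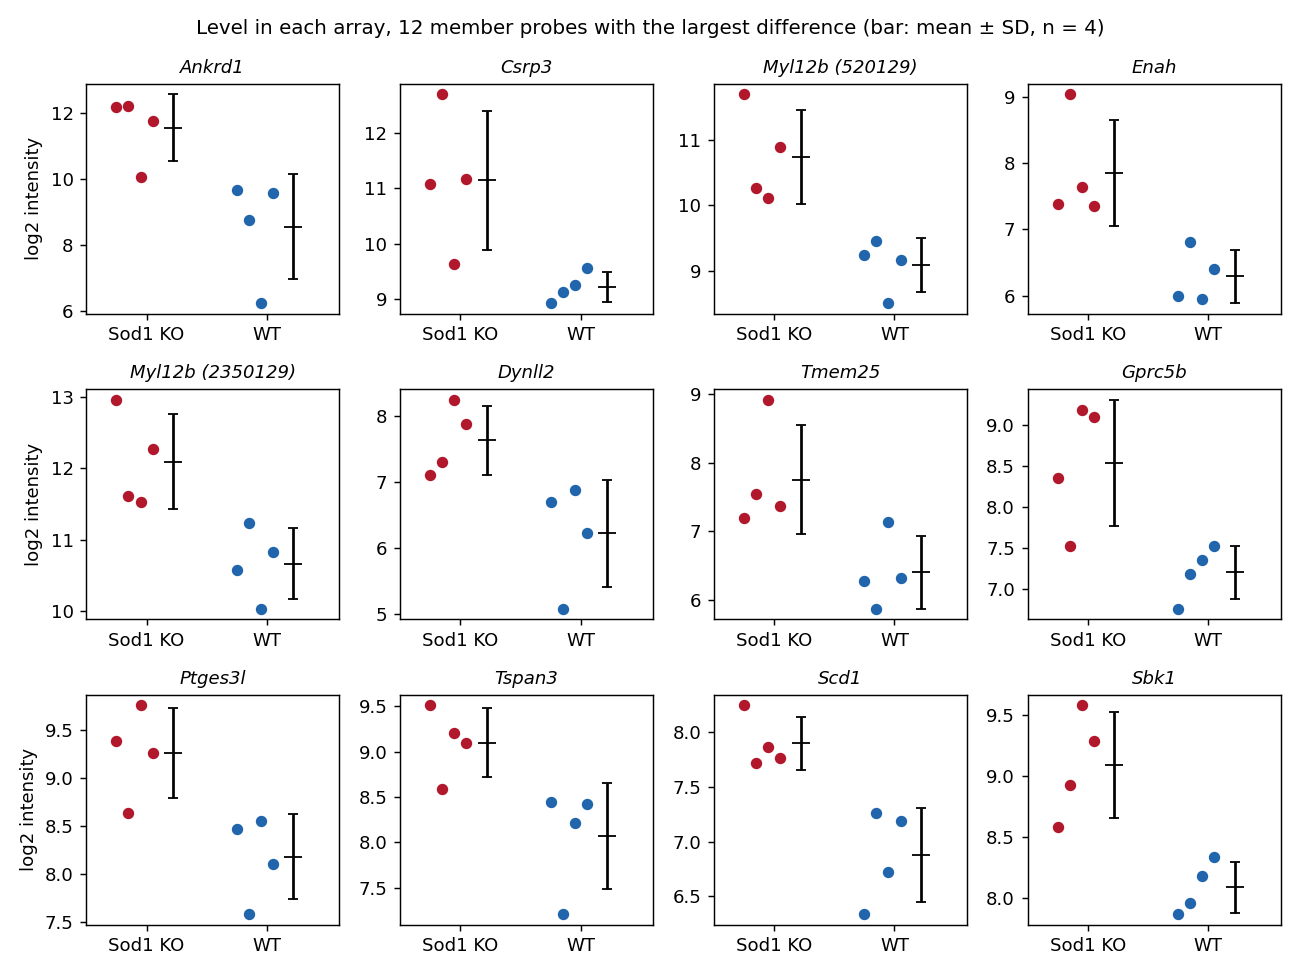
Log2 intensity in each array for the 12 probes with the largest differences, knockout points left of wild-type points, with the mean and SD of each genotype (n = 4) as a bar. Ankrd1 and Csrp3 spread widely within the knockout, and the Gprc5b groups come within 0.0036 log2 units of each other.

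**Figure D4:**
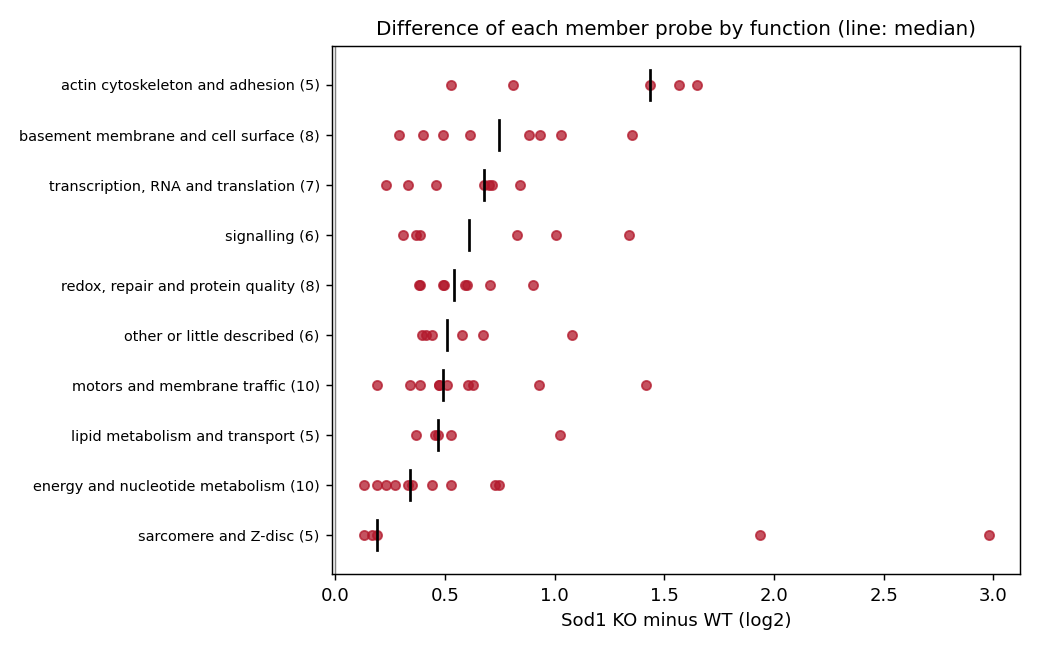
Difference between knockout and wild-type means (horizontal axis, log2 units) for the 70 probes, grouped by function, with the number of probes in brackets and the group median as a line. Actin cytoskeleton genes have a median of 1.43, and the sarcomere group of 0.19 holds both the largest value, 2.98, and the smallest, 0.13. Enah and Tln1 in the actin group and Dynll2 in the traffic group passed the level filter only through knockout arrays.

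Other probes of the same genes give a further reading of the transcript, but from the same samples that the rule used. A transcript that was high in these knockout samples for any reason would tend to be high on them too. They therefore do not test the list. Of the 69 genes, 28 had 32 further probes that were not members, and 31 of the 32 had a higher mean in the knockout. Over all named probes, whose genes were not chosen for a difference, the mean was higher in the knockout at 46.0% of those past the filter. Below the filter it was higher at 48.5%. The median difference of the 32 further probes was 0.39, beside 0.53 for the member probes of these genes. Of the 19 past the filter 18 were higher, with a median of 0.28, and all 19 overlapped between genotypes, since a probe that did not would itself be in the list. Of the 13 below the filter all were higher, with a median of 0.53, and 5 did not overlap, against 3.79% of all named probes below the filter. These 5 belonged to Ankrd40, Nr1d1, Plpp1, Scp2 and Tbrg4. The dim probe of Plpp1 stood at 6.45, 6.49, 6.48 and 6.33 in the knockout, against 6.01, 4.99, 5.17 and 5.41 in the wild type, and that of Nr1d1 at 7.20, 8.18, 6.79 and 6.79 in the knockout, against 6.60, 6.38, 6.51 and 6.52 in the wild type. On both Nr1d1 probes replicate 2 was the highest knockout.

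The second probe of Csrp3 stood at 12.06, 13.12, 10.33 and 11.76 in the knockout, against 9.88, 10.40, 10.54 and 10.59 in the wild type. It differed by 1.47, but knockout replicate 3 fell inside the wild-type range. Second probes of Ptges3l, Msi2, Hspg2, Gnas, Cops7a and Coq5 differed by 0.68, 0.83, 0.53, 0.41, 0.38 and 0.32. Eif5a differed by 0.84 on its member probe and by 0.92 and 0.07 on its others. Whether the probes of Eif5a and Nme1 tell these genes from near-identical sequences was not tested. For several members a further probe differed far less than the member probe. Mrps35 differed by 0.53, and its other probe, at 8.63, 8.27, 8.59 and 8.22 in the knockout against 8.46, 8.80, 8.54 and 8.07 in the wild type, by -0.04. Myl12b differed by 1.65 and 1.43 on its member probes and by 0.15 on its other. Srsf5 differed by 0.70 and its other probe by 0.01. Ube3b differed by 0.49 and its brighter other probe by 0.08, Agfg1 by 0.19 and 0.02, and Banf1 by 0.33 against 0.23 and 0.03. For 41 genes the named probes of the deposited table hold the member probe or probes alone.

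**Figure D5:**
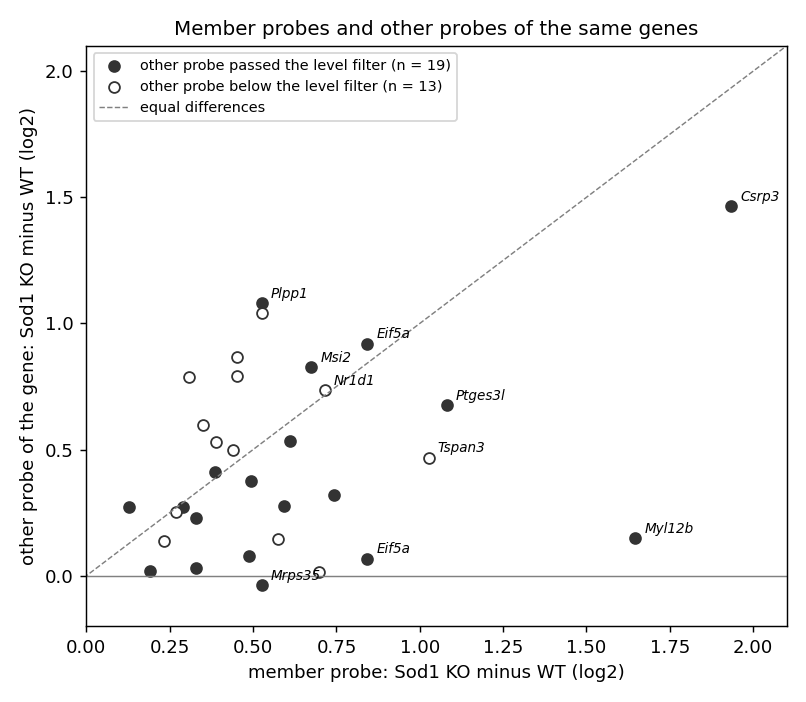
Difference between knockout and wild-type means for each of the 32 further probes (vertical axis) against the member probe of the same gene (horizontal axis), both in log2 units, with filled points past the level filter and open points below it. All but Mrps35 at -0.04 lie above 0, and Myl12b, Eif5a and Srsf5 have a further probe far under the dashed line of equal differences.

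Single arrays set the edges of the list unevenly. Knockout replicate 2 was the lowest knockout at 29 of the 70 probes, or 41.4%, against 28.2% of all named tested probes. The other knockouts were lowest at 13 to 15 probes. Knockout replicate 3 was the highest at 29 probes, or 41.4%, against 27.6%. Wild-type replicate 1 was the highest wild-type array at 28 probes, or 40.0%, against 25.4%. The median distance of the members from their wild-type mean was 0.52, 0.35, 0.58 and 0.47 in knockout replicates 1 to 4, and from -0.04 to 0.07 in the wild-type arrays. Knockout replicate 2 lay below the mean of the other 3 knockouts at 52 of 70 probes.

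At the edge of the list, the 4 members of narrowest gap were Cd99l2, Gprc5b, Dctn1 and Col4a2, with gaps of 0.0014, 0.0036, 0.0047 and 0.0049 log2 units. Just outside it, Tnnt3, fast troponin T, and Clock, a circadian transcription factor, had a knockout and a wild-type array at the same value. Kansl2 and Nipal3 had gaps of -0.0027 and -0.0042. Their differences were 0.10 for Tnnt3, 0.24 for Clock, 0.63 for Kansl2 and 0.52 for Nipal3, against 0.13 to 2.98 for the members.

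The members were also set beside 17 lists of related genes, in which the brightest probe past the filter stood for each gene. These lists were chosen with earlier results of the same data known, so their counts are description only. Over all 3823 genes tested, 1678 had a higher mean in the knockout, the median difference was -0.04, and 0 genes of these lists passed limma over all probes. Of the 3823, 68 were higher and 107 lower in the knockout without overlap. Of 8 acetylcholine receptor and denervation-responsive genes tested, 6 were higher, with a median of 0.88, and Ankrd1 alone did not overlap. Leaving out 1 array, that median ran from 0.53 without knockout replicate 1 to 1.31 without knockout replicate 2, and was 0.53 without wild-type replicate 1. Of 21 actin and microtubule regulators 16 were higher, with a median of 0.15, and 5 did not overlap: Myl12b and the left-out Fez1, Mapt, Myl12a and Pfn1. That median ran from 0.05 without wild-type replicate 2 to 0.33 without wild-type replicate 4. Of 11 extracellular matrix genes 8 were higher, with a median of 0.20, Hspg2 and Col4a2 without overlap. Of 18 genes of excitation, calcium handling and ion pumps 17 were higher, with a median of 0.15, and 0 without overlap. These medians ran from 0.07 without knockout replicate 2 to 0.32 without wild-type replicate 3 for the matrix and from 0.07 without knockout replicate 3 to 0.36 without wild-type replicate 3 for excitation. The other lists that held members had medians of -0.03 to 0.02. Of 43 respiratory chain genes 21 were higher, with a median of -0.01, and the 3 members were the only ones without overlap. Of 16 enzymes that remove peroxide or superoxide or reduce their products 8 were higher, with a median of 0.02. The brightest Msrb1 probe, at 10.17, 9.76, 10.22 and 10.35 in the knockout against 9.75, 9.87, 9.83 and 9.94 in the wild type, overlapped, unlike its member probe. Of 8 genes of fatty acid and triglyceride synthesis 3 were higher, with a median of -0.03, and Scd1 alone did not overlap. Of 25 translation factors 13 were higher, with a median of 0.003 and Eif5a alone without overlap, and of 14 growth and circadian regulators 7, with a median of 0.01 and Nr1d1 alone. Of the 10 tested genes on the list of Sod1 neighbours 4 were higher, with a median of -0.05. Bach1 and Ifngr2 were the nearest of them on either side. The lists of immature fibre genes (5 of 7 higher, median 0.45), electrophile detoxification (6 of 16, -0.08), cholesterol (3 of 3, 0.19), lysosome (7 of 18, -0.07), dystrophin complex (4 of 6, 0.14), ribosomal proteins (13 of 38, -0.04) and solute carriers (5 of 10, -0.10) held no member. The left-out Dhrs4, Lgmn, Dtna and Rpl3, in the electrophile, lysosome, dystrophin and ribosomal lists, were higher without overlap. Keap1, in the electrophile list, was lower without overlap. Leaving out 1 array, the immature fibre median ran from 0.25 without knockout replicate 1 to 0.83 without knockout replicate 2. The cholesterol median ran from 0.02 without wild-type replicate 2 to 0.39 without wild-type replicate 4, and was 0.38 without knockout replicate 2. The dystrophin median ran from -0.01 without wild-type replicate 4 to 0.24 without wild-type replicate 2, and that of the solute carriers from -0.24 without knockout replicate 4 to 0.01 without wild-type replicate 2.

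Markers of the muscle fibre were high in every array, at a summed intensity of 17.23 to 17.28 on the log2 scale in knockout arrays and 17.04 to 17.18 in wild-type arrays, and 10 of 12 measured had a higher mean in the knockout. Tnnc2 and Mylpf are among these markers. In whole muscle, fewer cells of a type and less RNA per cell cannot be told apart. Of the 6 macrophage markers measured, 0 passed the level filter, with 5 of 6 higher and summed levels of 7.33 to 8.80 in knockout arrays and 7.13 to 8.77 in wild-type arrays. Endothelial markers summed to 10.10 to 10.63 in knockout arrays and 10.29 to 10.77 in wild-type arrays, with 0 of 6 higher. Among them Tek, below the level filter, was lower in the knockout without overlap. Fibroblast markers summed to 12.11 to 12.40 in knockout arrays and 12.23 to 12.69 in wild-type arrays, with 0 of 3 higher, and Schwann cell and nerve markers to 7.65 to 9.02 in knockout arrays and 8.38 to 8.95 in wild-type arrays, with 0 of 3 higher. Slow fibre markers summed to 10.92 to 11.43 in knockout arrays and 10.62 to 11.16 in wild-type arrays, with 5 of 7 higher. Of the satellite cell markers 0 of 4 had a higher mean in the knockout, of the red blood cell markers 1 of 5 and of the smooth muscle markers 1 of 3. The 1 lymphocyte marker measured was higher in the knockout and the 1 adipocyte marker, Fabp4, lower without overlap, both below the level filter. The part of these markers in the members' differences was not tested.

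The member genes lay on 17 of the 20 chromosomes counted, without the Y. Chromosome 11 held 12 of the 69, or 17.4%, against 9.16% of tested genes, and among them were Dynll2, Eif5a, Nr1d1 and Nxn. Chromosome 16 held App and Cpped1, or 2.9% against 2.67%.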

How the data were processed

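EDL muscle RNA of 4 sod-/- and 4 wild-type samples was labelled as biotinylated cRNA and hybridised to Illumina bead arrays, per the labels' protocols. The deposited table holds 9232 probes as log2 intensities that the authors had quantile normalized, since all 8 columns hold the same sorted values. The log base was judged from the range, 3.21 to 14.19, and the software is not given in the sources used here. A table with 8 further value columns was not used, because its column names match no sample label. Of the probes, 8403 had 1 gene symbol, 3 several and 826 none. Probes above the array median in at least 4 arrays were fitted with limma 3.58.1 (R 4.3.3), lmFit and eBayes, and adjusted over all 4698. The fit was tested on simulated data. Members, lists and rules were chosen with earlier results of these data known. Values in each array are given for the members with the 15 largest differences, the 8 widest and 4 narrowest gaps, the 4 highest means, another probe or a place on a list, and for the 4 probes just outside. App, Il15 and Tln1 were added after their values were seen. Function groups were assigned by hand. Alternatives were the filter, cyclic loess, an intensity trend, array weights, a replicate block, 1 value per gene, a wider gap and each array left out. Same-numbered arrays did not deviate together, so the numbers were not treated as pairs. Correlations between arrays were 0.911 to 0.969 within the knockout, 0.906 to 0.968 within the wild type and 0.863 to 0.97 between them.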

Additional observations from a re-analysis of the deposited data

Results flagged for a closer look

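In 12 of 140 groups of 4 arrays, 1 array lay further from the rest than Dixon's critical value for 4 samples allows. Chance gives about 1 in 20 for groups taken without selection, a rate that does not carry over here, because the list's rule chose these values. Among knockout groups, Enah had 9.04 in replicate 2, with the others at 7.35 to 7.63, and Atp5b 13.96 in replicate 2, with the others at 13.75 to 13.76. Il15 had 8.65 in replicate 3, with the others at 7.10 to 7.28, and Hemk1 7.94 in replicate 3, with the others at 7.23 to 7.34. Cpped1 had 9.50 in replicate 3, with the others at 9.01 to 9.09. In replicate 1, Gnas had 8.27 (others 8.03 to 8.05), Abcd3 7.55 (others 7.34 to 7.36) and Rab31, on the low side, 7.12 (others 7.65 to 7.73). Among wild-type groups, Msrb1 had 8.87 in replicate 1 (others 8.54 to 8.59) and Bloc1s6 8.37 in replicate 1 (others 8.07 to 8.08). Cd99l2 had 9.82 in wild-type replicate 2 (others 10.22 to 10.29) and Ogfod3 6.75 (others 7.12 to 7.17).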

How the results depend on the processing

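The 0 probes past the limma threshold became 4 with array weights, 439 at an unadjusted p under 0.05, 0 to 36 with 1 array left out, and 59 without both replicates numbered 2, a choice made after seeing the data. The 36 came without knockout replicate 2. The count stayed at 0 without a filter, with the filter on all 8 arrays, with cyclic loess, with a trend, with 1 value per gene and with the replicate number as a block, where 422 had an unadjusted p under 0.05. The 82 higher probes became 237 without a filter, where random labels average 120, and 15 with a gap of at least 0.25. They became 107 to 307 with 1 array left out, against an average of 123.1. The 116 lower probes became 236 without a filter, 10 with that gap and 149 to 333 with 1 array left out. Cyclic loess gave 96 higher and 94 lower probes, a share higher of 50.5% instead of 41.4%, and dropped Ehd4 and Actn3 from the list. The filter on all 8 arrays kept 50 of the 70 member probes. The replicate block cannot change a difference of means, because each replicate number occurs once in each genotype. With 1 array left out, the members' median difference of 0.52 stayed between 0.48 and 0.56. Leaving out an array cannot make a member overlap, so this range does not test the list. The dystrophin list median was -0.01 without wild-type replicate 4, and the peroxide list median was -0.13 without a filter. The causes were not tested. The alternative on the table without common quantiles was not run, because its column names match no sample label. With 4 arrays a genotype, the median standard error of a difference over all tested probes was 0.21.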
